A study of Homo sapiens with 2 samples.

Results

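The 10 hypoxia-induced genes studied here encode no glycolytic enzyme and were followed at day 4 of the hematopoietic differentiation of H1 cells, with and without MEIS2. They were ANKRD37, COXFA4L2 (formerly NDUFA4L2), BNIP3, BNIP3L, CA9, ADM, AK4, NDRG1, DDIT4 and KDM3A, found by NCBI Gene number among the 17397 genes listed. All 10 were listed, and 9 passed a filter of at least 1 FPKM in at least 1 library, CA9 being the exception. The genes were chosen with the FPKM values of these same 2 libraries in view, so the differences below describe the libraries and test nothing.

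H1 is a human embryonic stem cell line in wide use. Of the 2 libraries, 1 was from wild-type (WT) H1 and 1 from MEIS2-/- H1. Both cultures received activin A (50 ng/ml) with BMP4 (40 ng/ml) over 2 days, and then VEGF (40 ng/ml) with bFGF (50 ng/ml) over another 2 days. The MEIS2-/- cells descend from a single cell that had received Cas9 and a guide against MEIS2 on a lentiviral vector and had been selected with puromycin. The study made 2 homozygous clones, and the sources used here do not say which was sequenced or give the oxygen level of the cultures. As each genotype has a single library, the variation among cultures is unknown, so none of the differences could be checked against replicates, and p-values are not given. MEIS2 mRNA itself was at 10.85 FPKM in the WT library and 3.44 FPKM in the other. FPKM counts the fragments of a gene per kilobase of its transcript and per total of mapped fragments, so levels can be compared between genes. Log2 fold changes compare MEIS2-/- with WT on the scale of log2(FPKM + 0.1), where the change of a weakly expressed gene looks smaller than it is. Where a pair of FPKM values is given below, the WT value comes first.

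Cells read oxygen through the hypoxia-inducible factors (HIFs). When oxygen is plentiful, prolyl hydroxylases of the EGLN family mark the HIF alpha subunits, and the VHL protein sends them for destruction. When oxygen is scarce, the alpha subunits persist, pair with ARNT and bind a short DNA element, the hypoxia response element, at their target genes. Beyond glycolysis these targets turn over mitochondria, adjust respiration and nucleotide balance, regulate pH, hold back growth and send vascular signals. In early embryos low oxygen is a normal condition, and HIF activity is known to take part in the formation of vessels and blood.

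The promoters are shown because the response element is the sequence that these genes are known to share. RefSeq promoters of build GRCh38.p14 were matched for 8 of the 10 genes, the others being BNIP3L and NDRG1. The 250 bases before the most upstream start of each gene were searched on both strands for the 2 forms of the element's core, ACGTG and GCGTG. Capitals mark every match, which reads CACGT or CACGC where the match lies on the opposite strand. A CACGTG is its own complement and counts as a match on each strand. The first 4 sequences are the part of the window that GENCODE 29 assigns to no exon, and the others are 30 bases around the matches, since the longest exon-free part of those windows is short or holds no match. All 250 bases of the ANKRD37 and ADM windows, and 223 of the KDM3A window, lie in GENCODE 29 exons of the gene itself. Matches there thus fall in annotated exons, although distances are counted from the RefSeq start.
COXFA4L2 (chr12:57240763-57241012, minus strand): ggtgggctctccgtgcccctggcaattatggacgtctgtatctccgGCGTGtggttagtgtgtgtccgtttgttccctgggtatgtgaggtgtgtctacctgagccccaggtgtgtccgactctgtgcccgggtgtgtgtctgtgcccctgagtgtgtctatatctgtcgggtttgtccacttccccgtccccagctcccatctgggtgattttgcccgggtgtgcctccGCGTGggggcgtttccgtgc
DDIT4 (chr10:72273674-72273919, plus strand): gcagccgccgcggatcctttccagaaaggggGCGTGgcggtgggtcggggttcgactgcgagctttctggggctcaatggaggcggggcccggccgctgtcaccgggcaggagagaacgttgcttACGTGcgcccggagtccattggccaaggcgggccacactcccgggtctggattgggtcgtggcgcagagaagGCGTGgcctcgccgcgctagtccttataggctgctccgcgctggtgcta
BNIP3 (chr10:131982014-131982173, minus strand): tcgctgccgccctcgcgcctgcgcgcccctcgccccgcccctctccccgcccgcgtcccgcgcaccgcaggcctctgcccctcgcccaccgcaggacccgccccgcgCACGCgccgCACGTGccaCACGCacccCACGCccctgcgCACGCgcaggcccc
AK4 (chr1:65147302-65147548, plus strand): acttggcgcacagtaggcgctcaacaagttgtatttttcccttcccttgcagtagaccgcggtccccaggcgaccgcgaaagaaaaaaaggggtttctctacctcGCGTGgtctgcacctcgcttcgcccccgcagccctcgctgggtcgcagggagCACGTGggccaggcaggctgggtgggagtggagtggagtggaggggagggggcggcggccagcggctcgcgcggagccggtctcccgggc
ANKRD37 (chr4:185396676-185396705, plus strand): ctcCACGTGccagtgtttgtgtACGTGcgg
KDM3A (chr2:86441332-86441361, plus strand): tccgggaggctgtGCGTGtcttgtgagagc
ADM (chr11:10304959-10304988, plus strand): agagcaggagcgcGCGTGgctgaggaaaga
CA9 (chr9:35673897-35673926, plus strand): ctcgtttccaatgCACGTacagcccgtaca

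All 8 windows held at least 1 match, against 43.2% of the 35116 promoter windows in the table and 51.2% of the 20021 windows of genes in the FPKM tables. BNIP3 held 6 matches, with first bases between −143 and −104, counted back from the start, and 4 of the 6 were GCGTG. DDIT4, AK4 and ANKRD37 held 3 each, COXFA4L2 held 2, and KDM3A, ADM and CA9 held 1 each. AK4 and ADM, which passed the FPKM filter and were not 2-fold lower in MEIS2-/- cells, also carried the core, as did CA9, which did not pass it. The windows of these 8 genes were between 60.4% and 81.6% GC, with a median of 63.2% for genes in the FPKM tables, and the cores hold a CpG. A core bound by MEIS proteins, TGACAG, was found in 1 of the 8 windows, that of DDIT4 at base −154, and in 13.0% of all windows. A match is a run of letters and was not tested as a binding site.

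**Figure D1:**
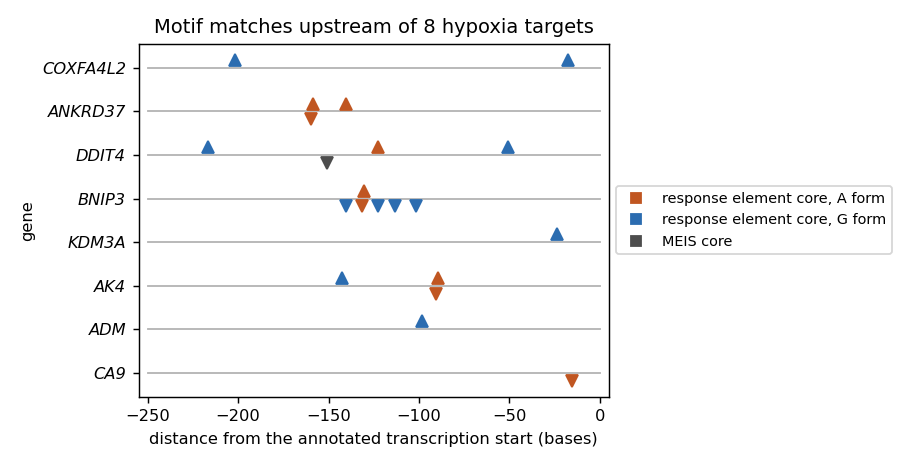
Matches of the hypoxia response element core (ACGTG as the A form, GCGTG as the G form) and of the MEIS core in the 250 bases before the annotated start of 8 genes, by distance from the start in bases. Triangles pointing up are matches on the strand of the gene and triangles pointing down on the other, and BNIP3 has the densest cluster, with 6 matches.

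Most of these hypoxia targets were expressed in WT cells and were lower in MEIS2-/- cells, some of them far lower. In bulk RNA, fewer cells of a type and less RNA per cell cannot be told apart. A 2-fold lower level was seen for 7 of the 9 that passed the filter, and 5 of the 7 were at least 4-fold lower, while 0 were 2-fold higher. Among all 13075 genes compared, the share past 2-fold was 7.97% lower and 7.84% higher, and 1.84% were at least 4-fold lower. Since the genes were picked with this contrast known, nothing is read from the difference between these shares. The median log2 fold change was −2.50 over the 9 genes and 0.12 over all genes compared. The 10 genes together summed to 949.54 FPKM in the WT library and 237.31 FPKM in the MEIS2-/- library, so 24.99% of the sum was kept. DDIT4 alone made up 52.7% of the WT sum, and without it 40.4% was kept. Setting to 0 the median log2 ratio of the genes that reach 5 FPKM in both libraries would lower the log2 fold changes by up to 0.12, and the median of the 9 genes would be −2.62.

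**Figure D2:**
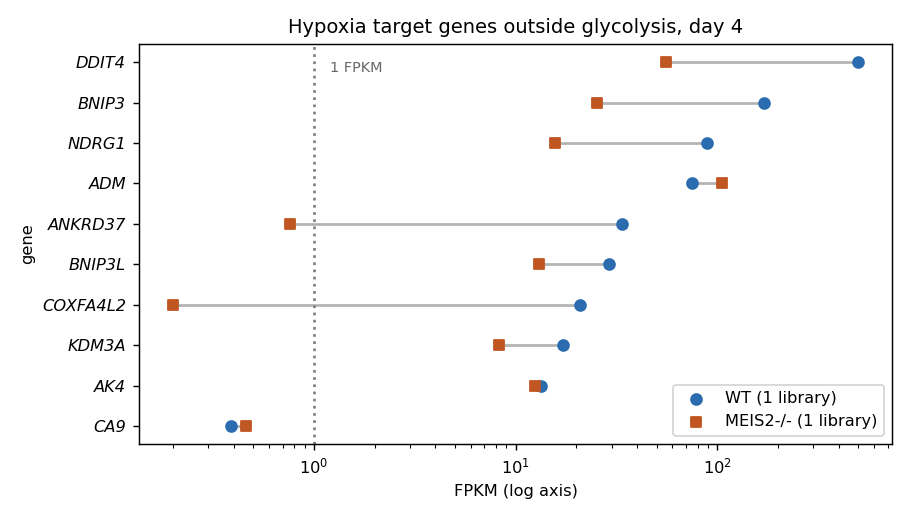
FPKM of the 10 hypoxia targets in the WT library (blue circles) and the MEIS2-/- library (orange squares) on a log axis, ordered by WT level, with a dotted line at 1 FPKM. DDIT4, BNIP3, NDRG1, ANKRD37 and COXFA4L2 show the widest gaps, ADM lies higher in MEIS2-/- cells, and the 2 values of AK4 and of CA9 lie close together.

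COXFA4L2 and AK4 encode mitochondrial proteins. COXFA4L2, a relative of the complex IV subunit COXFA4 that is known to damp respiration in low oxygen, was at 20.99 FPKM in the WT library and 0.20 FPKM in the MEIS2-/- library. It kept 0.953% of its WT level, and its log2 fold change of −6.14 was the third lowest of the 13075 genes compared, or 13 from the lowest with a pseudocount of 0.01 FPKM. COXFA4 itself, which is not known as a hypoxia target, was at 56.31 FPKM and 61.53 FPKM, a log2 fold change of 0.13. COXFA4L2 thus went from 37.3% of the COXFA4 level to 0.325% of it. COXFA4L2 shares 33 of its 2806 annotated exon bases with SHMT2 on the opposite strand, which was at 106.94 FPKM and 75.80 FPKM. AK4, an adenylate kinase of the mitochondrial matrix that balances nucleotides, was at 13.37 FPKM and 12.53 FPKM. Its log2 fold change of −0.09, or −0.21 after the rescaling above, was at percentile 34.2 of all genes compared. The paralogs AK1 (−0.24) and AK3 (0.38) also had log2 fold changes well short of 2-fold in either direction. Reads that AK4 shares with its processed copies in the genome could have been assigned to it, which these files cannot show.

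BNIP3 and BNIP3L encode related receptors of the outer mitochondrial membrane, which hand mitochondria to the autophagy machinery. BNIP3 was the second highest of the 10 genes in WT cells, at 171.01 FPKM, and with 25.20 FPKM in MEIS2-/- cells its log2 fold change was −2.76. BNIP3L was at 29.06 FPKM and 13.11 FPKM, a log2 fold change of −1.14. Both were lower, but BNIP3 kept 14.7% of its WT level and BNIP3L 45.1%. The ratio of BNIP3 to BNIP3L was 5.88 in WT cells and 1.92 in MEIS2-/- cells. BNIP3L shares 330 of its 4307 exon bases with PNMA2 on the opposite strand, which was at 1.41 FPKM and 0.76 FPKM.

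DDIT4 and NDRG1 are stress genes tied to restrained growth. DDIT4, which encodes REDD1, an inhibitor of the growth kinase complex mTORC1, was the highest of the 10 genes in WT cells, at 499.98 FPKM, and ranked 128 among all genes listed. In MEIS2-/- cells it was at 55.50 FPKM, with a log2 fold change of −3.17. By the loss in FPKM, 444.48, it ranked 15 among all genes compared. Its paralog DDIT4L, at 2.99 FPKM and 4.68 FPKM, went the other way, with a log2 fold change of 0.63. GENCODE 29 annotates an antisense gene, DDIT4-AS1, over 847 of the 2058 exon bases of DDIT4, and this antisense gene is not among those listed. The library kit does not mark strand, so reads of DDIT4-AS1 from the shared bases cannot be told from those of DDIT4. NDRG1, a cytoplasmic protein induced by hypoxia and during differentiation, was at 89.24 FPKM and 15.68 FPKM, a log2 fold change of −2.50. Of its paralogs, NDRG2 (38.59 FPKM and 39.32 FPKM) and NDRG3 (10.52 FPKM and 8.89 FPKM) had log2 fold changes of 0.03 and −0.24. NDRG4 was at least 2-fold lower, at 16.65 FPKM and 5.57 FPKM. NDRG1 was therefore above NDRG2 in WT cells and below it in MEIS2-/- cells, with ratios of 2.31 and 0.399.

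The remaining pair is KDM3A and ANKRD37. KDM3A, a histone H3K9 demethylase that itself needs oxygen to work, was at 17.10 FPKM and 8.24 FPKM. Its log2 fold change of −1.04 was just past 2-fold, and with a pseudocount of 1 FPKM it was −0.97. The related KDM3B, at 21.80 FPKM and 33.33 FPKM, and JMJD1C, at 7.26 FPKM and 6.81 FPKM, had log2 fold changes of 0.61 and −0.09. KDM3B exceeded KDM3A in both libraries, by a ratio of 1.27 in WT cells and 4.04 in MEIS2-/- cells. ANKRD37, a small ankyrin repeat protein best known as a hypoxia-induced transcript, was at 33.68 FPKM and 0.76 FPKM. Its log2 fold change of −5.30 was the fifth lowest of all genes compared, or 17 from the lowest with a pseudocount of 0.01 FPKM. ANKRD37 shares 909 of its 2580 exon bases with UFSP2 on the opposite strand. UFSP2 was at 9.92 FPKM and 4.85 FPKM, and as the library kit does not mark strand, reads from the shared exons cannot be told apart.

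**Figure D3:**
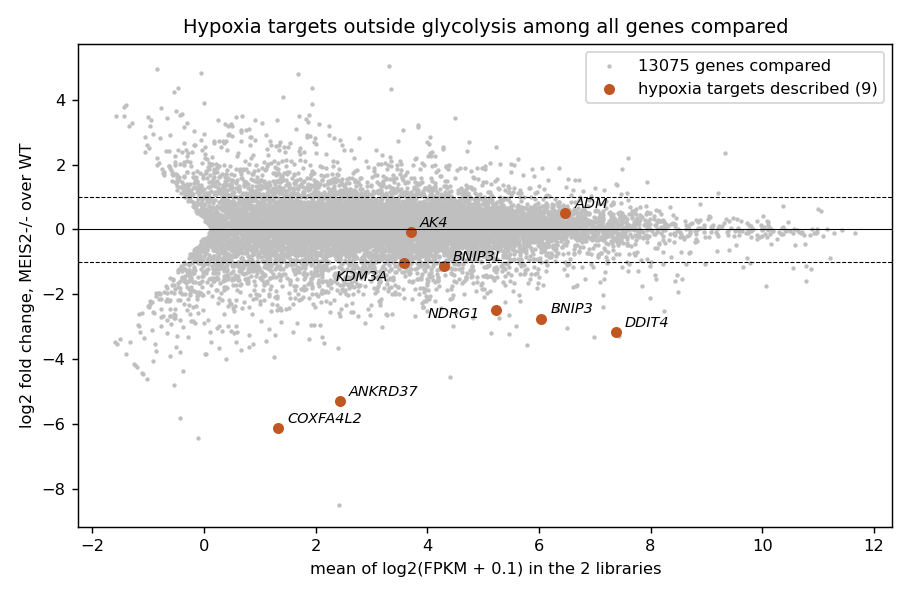
Log2 fold change of MEIS2-/- over WT against the mean of log2(FPKM + 0.1) for the 13075 genes compared (grey) and the 9 hypoxia targets compared (orange), with dashed lines at 2-fold. COXFA4L2 and ANKRD37 lie near the bottom edge of the cloud. DDIT4, BNIP3 and NDRG1 lie among its lower points at higher levels, and AK4 lies inside it near 0.

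ADM and CA9 act outside the cell. ADM, the precursor of the vasodilator peptide adrenomedullin, was at 74.72 FPKM with MEIS2 and 105.63 FPKM without it. It was the single gene of the 9 with a higher level in MEIS2-/- cells, by a log2 fold change of 0.50, or 0.38 after the rescaling, at percentile 77.8 of all genes compared. It ranked the fourth of the 10 genes in WT cells and the first in MEIS2-/- cells, where it made up 44.5% of their summed FPKM, against 7.87% in WT cells. Its paralog ADM2 was at 9.76 FPKM and 4.10 FPKM, a log2 fold change of −1.23, and ADM5 was at 2.00 FPKM and 2.23 FPKM. Adrenomedullin signals through the receptor CALCRL joined to a RAMP protein. CALCRL was at 2.70 FPKM and 0.30 FPKM, a log2 fold change of −2.81. RAMP2, its usual partner for adrenomedullin, was at 9.07 FPKM and 6.31 FPKM. RAMP1, which turns CALCRL into a receptor for the related peptide CGRP, was higher, at 0.67 FPKM and 7.82 FPKM, a log2 fold change of 3.36. ACKR3, an atypical receptor that also takes up adrenomedullin, was at 2.70 FPKM and 10.09 FPKM, a log2 fold change of 1.86. The ligand was thus higher and the main receptor lower in MEIS2-/- cells, though ADM was within 2-fold. Of 5 receptor genes looked up, 4 were listed, and RAMP3 was not analysed here.

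CA9, a carbonic anhydrase on the cell surface that handles acid under hypoxia, was low, at 0.39 FPKM with MEIS2 and 0.46 FPKM without it. Both values are below the filter, and no fold is drawn from them. CA9 shares 643 of its 1670 exon bases with ARHGEF39 on the opposite strand, which was at 7.02 FPKM and 7 FPKM. Reads from these shared exons cannot be told apart either. Among its relatives, CA2 was the highest, at 96.38 FPKM and 62.58 FPKM. CA12, another surface form known as a hypoxia target, was low, at 0.92 FPKM and 1.99 FPKM, as was CA4, at 1 FPKM and 4.39 FPKM.

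Across the 21 paralogs reported, 18 passed the filter. Of these, 3 were at least 2-fold lower (NDRG4, ADM2 and CA11) and 3 at least 2-fold higher (CA4, CA12 and CA13). Among all genes compared these shares were 7.97% and 7.84%. The median log2 fold change of the paralogs was 0.08. After the rescaling this median was −0.04, so its sign depends on the scaling. COXFA4L3, AK5 and CA1 did not pass the filter, and CA8 and CA14 were within 2-fold. CA4, CA12 and CA13 are relatives of CA9, which did not pass the filter, and were at 1, 0.92 and 0.87 FPKM in WT cells. CA11, also a relative of CA9, was at 25.94 FPKM there.

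**Figure D4:**
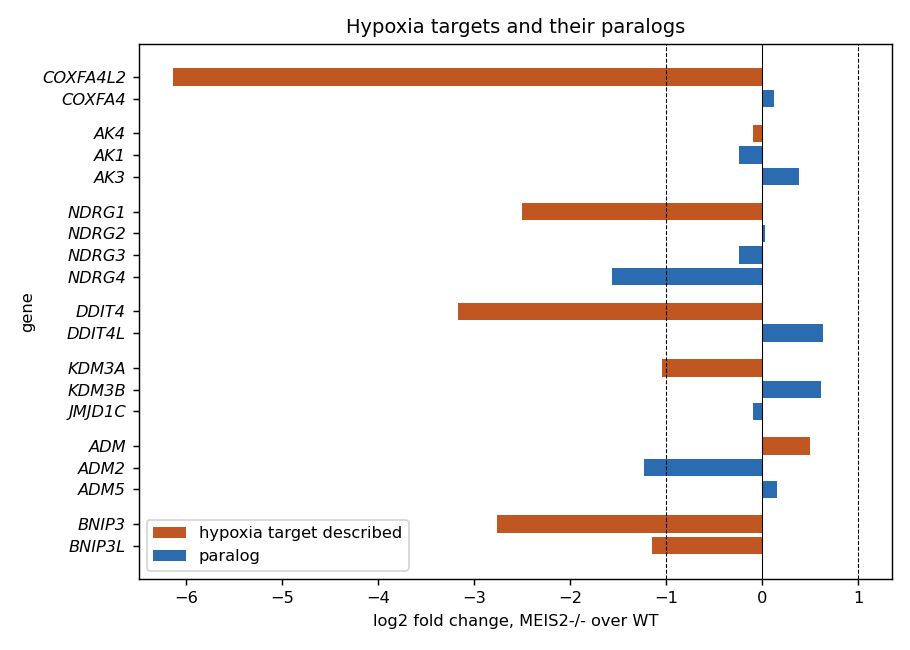
Log2 fold change of MEIS2-/- over WT for hypoxia targets (orange bars) and their paralogs (blue bars), grouped by family, with dashed lines at 2-fold. In the COXFA4, DDIT4 and KDM3 families the hypoxia target is at least 2-fold lower while its paralogs are within 2-fold, in the ADM family ADM is higher and ADM2 lower, and in the NDRG family NDRG4 is lower together with NDRG1.

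Other known hypoxia targets were looked up to place these genes in their pathway. Of 40 further targets outside glycolysis, 39 were listed and 38 passed the filter. Beside 7.97% and 7.84% of all genes compared, 24 of the 38 were at least 2-fold lower and 2 at least 2-fold higher. Their median log2 fold change was −1.26. The 5 lowest were TXNIP (−4.57), a brake on glucose uptake that is also controlled by glucose itself, BHLHE41 (−3.90), a repressor of the circadian clock family, NRN1 (−3.86), FAM162A (−3.58), a mitochondrial protein, and PPFIA4 (−3.39). TXNIP was at 103.41 FPKM and 4.26 FPKM, and FAM162A at 190.83 FPKM and 15.88 FPKM. The 5 highest were GPRC5A (2.08), CA12 (1.03), HMOX1 (0.78), which encodes a heme-degrading enzyme also induced by oxidative stress, EFNA1 (0.02) and KDM4C (−0.12). ADM was thus not the sole hypoxia target with a higher level in MEIS2-/- cells. VEGFA, EGLN3 and HILPDA were among the 24 lower genes.

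Of 22 genes of glycolysis and glucose or lactate transport, 14 were at least 2-fold lower, beside 7.97% of all genes compared. By contrast 0 were 2-fold higher, beside 7.84%, and the median log2 fold change of the 22 was −1.09. The lowest was the lactate exporter SLC16A3, at 539.04 FPKM and 55.52 FPKM, and the highest PFKM, at 33.42 FPKM and 33.76 FPKM. Summed, these genes took 3.35% of all FPKM in WT cells and 1.505% in MEIS2-/- cells, while the 10 hypoxia targets described above took 0.212% and 0.0539%. The lists were written with earlier results of these libraries known, and no test sets one against another.

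**Figure D5:**
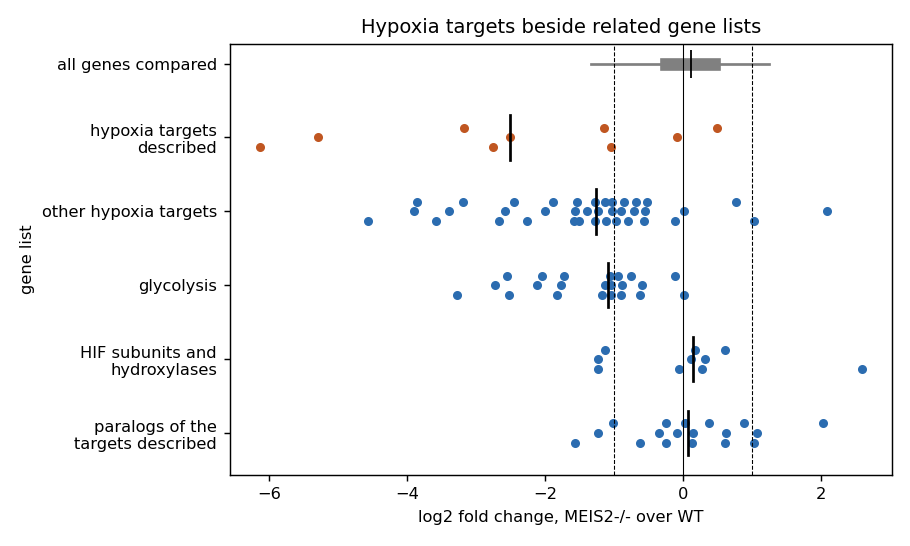
Log2 fold change of MEIS2-/- over WT for the 9 hypoxia targets compared, 38 other hypoxia targets, 22 glycolysis genes, 10 HIF subunits and hydroxylases and 18 paralogs, each point 1 gene and each black bar the median, with dashed lines at 2-fold. The grey bar on top spans percentiles 25 to 75 and the grey line percentiles 5 to 95 of all 13075 genes, whose median is 0.12.

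The genes that sense oxygen differed in both directions. HIF1A, which encodes the broadly expressed alpha subunit, was at 30.30 FPKM and 46.31 FPKM, a log2 fold change of 0.61. EPAS1, which encodes HIF-2 alpha, was at 2.16 FPKM and 13.60 FPKM, a log2 fold change of 2.60. HIF3A, whose products can oppose the other alpha subunits, was at 10.80 FPKM and 4.56 FPKM, a log2 fold change of −1.23. The partner ARNT was at 10.06 FPKM and 9.63 FPKM, and ARNT2 at 0.86 FPKM and 1.10 FPKM. Of the prolyl hydroxylases, EGLN1 (9.55 FPKM and 4.30 FPKM) and EGLN3 (36.27 FPKM and 15.35 FPKM), both also hypoxia targets, were at least 2-fold lower, and EGLN2 was at 61.07 FPKM and 74.11 FPKM. HIF1AN, an asparagine hydroxylase that also limits HIF, was at 7.10 FPKM and 7.99 FPKM, and VHL at 18.51 FPKM and 20.10 FPKM. Over the 10 genes the median log2 fold change was 0.14, with 3 at least 2-fold lower and 1 at least 2-fold higher. Among all genes compared, 7.97% were at least 2-fold lower and 7.84% higher. The mRNA of HIF1A, though within 2-fold, and that of EPAS1 were higher in the MEIS2-/- library. Their part in the levels of the hypoxia targets was not tested. HIF alpha is controlled mainly as protein, which was not measured here.

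Markers of other cell types differed between the libraries too, and are counted past 2-fold as for all genes compared (7.97% lower and 7.84% higher). Of 4 pluripotency markers compared, 2 were at least 2-fold higher in MEIS2-/- cells and 0 lower, and the 5 listed summed to 511.8 FPKM and 1772 FPKM. POU5F1, which encodes OCT4, was at 285.65 FPKM and 1454.14 FPKM, and SOX2 at 0.09 FPKM and 0.15 FPKM. Of 8 visceral endoderm markers, 5 were at least 2-fold higher and 0 lower, with sums of 607 FPKM and 1257 FPKM. APOA1 made up most of both sums, at 401.38 FPKM and 879.13 FPKM, and SOX17 is also in this list. Of 8 endothelium markers, 4 were at least 2-fold lower and 0 higher, with sums of 323 FPKM and 313 FPKM that include SOX17, also a marker of endoderm, at 141.01 FPKM and 264.03 FPKM. ETV2, a factor that starts the endothelial and blood programs, was at 109.62 FPKM and 17.54 FPKM. Of 5 hematopoiesis markers compared, 3 were at least 2-fold lower and 1 higher, with sums of 140 FPKM and 60.3 FPKM over the 8 listed. Of these, PTPRC, which encodes CD45, RUNX1 and SPI1 were below 1 FPKM in both libraries. Of 7 mesoderm markers, 2 were at least 2-fold lower and 2 higher, with sums of 937 FPKM and 494 FPKM. Of 8 mesenchyme and cardiac markers, 3 were at least 2-fold lower and 0 higher, with sums of 666 FPKM and 276 FPKM. COL1A1 made up most of both sums, at 464.09 FPKM and 160.87 FPKM. No marker was listed at 0 in either library. The part of these cell types in the values of the hypoxia targets was not tested.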

How the data were processed

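Total RNA of 1 WT and 1 MEIS2-/- culture was made into libraries with an Illumina TruSeq RNA kit, which does not mark strand, and sequenced by BGI. The authors deposited 1 FPKM value per gene and library, rounded to 2 decimals, with the RefSeq transcripts of each gene. The submitters' processing notes name hg19, BWA, Bowtie and RSEM, and their versions are not given in the sources used here. Of 17397 genes, 17365 were matched to a symbol by NCBI Gene number in a RefSeq table (GRCh38.p14), used for names only. The depth is unknown, since low values did not fall on whole reads (best agreement 0.198 and 0.213, where 1 is complete).

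Log2 fold changes used a pseudocount of 0.1 FPKM over genes that reach 1 FPKM in either library. Differences of at least 2-fold were counted without a test. The genes and lists were chosen with earlier results of these data known, and 2 genes of the paralog and mitophagy lists are not reported here. Named were all 10 genes, MEIS2, the HIF subunits and hydroxylases, adrenomedullin receptors, the paralogs reported, and the 5 lowest and 5 highest further targets. Of the glycolysis, mitophagy, mTORC1 and ATF4 lists, the lowest and highest gene were named, and of the markers only some, chosen after their values were seen. VEGFA, EGLN3, HILPDA, the opposite-strand neighbours and the other genes named from the mitophagy, mTORC1 and ATF4 lists were added after their values were seen. Exon overlaps used the merged exons of all GENCODE 29 transcripts on GRCh38, so the shares need not hold for the RefSeq transcripts measured. Alternatives were other pseudocounts, filters, scalings and thresholds. The computation was tested on simulated data. Python 3.11.15, numpy 2.4.6, pandas 2.3.3 and matplotlib 3.10.9 were used.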

Additional observations from a re-analysis of the deposited data

How the results depend on the processing

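Over 8 alternatives and 16 results, 108 alternative values were computed, and 96 kept their direction and their side of the threshold or stayed within 1.5 times. The count of 7 hypoxia targets at least 2-fold lower ranged from 5 (4-fold threshold) to 7. The median log2 fold change of the 9 targets that passed the filter ran from −2.62 to −2.44. Without a filter, where CA9 is included as well, the median of the 10 was −1.82. Of the 54 values for single targets, the 1 that changed was KDM3A. The log2 fold change of COXFA4L2 ran from −6.64 to −4.20 and that of ANKRD37 from −5.45 to −4.30, depending mostly on the pseudocount, while ADM stayed between 0.38 and 0.50 and AK4 between −0.21 and −0.09.

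Of all genes, 1042 were at least 2-fold lower and 1025 at least 2-fold higher. With a filter of 5 FPKM these counts were 598 and 554, with TMM scaling 1179 and 853, with the median log2 ratio set to 0 1197 and 833, with a pseudocount of 1 FPKM 693 and 623, at 1.5-fold 1890 and 2353, and at 4-fold 241 and 194. Without a filter, 1567 genes were higher. At 4-fold, 10 other hypoxia targets in place of 24 and 6 glycolysis genes in place of 14 were lower. No replicate could be left out, and no paired analysis was possible because each genotype has 1 library. Without depth, no counting error can be given, which weighs most on COXFA4L2 and ANKRD37 in MEIS2-/- cells and on CA9.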

Other observations

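Genes that work beside the hypoxia targets were looked up as well. Of 13 other mitophagy genes, all compared, 1 (7.69%) was at least 2-fold lower, near the 7.97% of all genes compared, and 0 were 2-fold higher, and the median log2 fold change was −0.18. The lower gene was MAP1LC3A (29.05 FPKM in WT and 11.12 FPKM in MEIS2-/- cells), an LC3 protein of the autophagosome. The highest was PINK1, a kinase that marks damaged mitochondria, at 25.26 FPKM and 48.36 FPKM. FUNDC1, another mitophagy receptor tied to hypoxia, was at 9.25 FPKM and 10.10 FPKM, and the receptor FKBP8 at 362.37 FPKM and 325.80 FPKM.

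Of 12 genes in or around the pathway of mTORC1, which the DDIT4 product inhibits, 1 (8.33%) was at least 2-fold lower without MEIS2. That share was near the 7.97% of all genes compared. The gene was TXNIP, also counted among the other hypoxia targets above, and 0 of the 12 were 2-fold higher. Their median log2 fold change was 0.28, beside 0.12 for all genes compared, and it was 0.16 after setting the median log2 ratio of all genes to 0. MTOR was at 10.07 FPKM and 16.22 FPKM, RPTOR, the highest of the list by log2 fold change, at 6.85 FPKM and 11.47 FPKM, and TSC2, which DDIT4 works through, at 21.62 FPKM and 30.62 FPKM. DDIT4 is also known as a target of ATF4, a factor of the amino acid and unfolded protein responses. Of 10 genes of that response, 3 (CHAC1, VLDLR and ASNS) were at least 2-fold lower and 0 were 2-fold higher. Among all genes compared the shares were 7.97% and 7.84%. VLDLR was also counted among the other hypoxia targets above, and the median of the 10 genes was −0.51. ATF4 itself was at 327.67 FPKM and 243.87 FPKM. The lowest was CHAC1 (8.33 FPKM and 2.49 FPKM) and the highest SLC7A11 (1.44 FPKM and 2.12 FPKM). The part of ATF4 in the level of DDIT4 was not tested.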
